A study of Mus musculus with 4 samples.

Results

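Egr2 binding was described at the genes of its own family and of its corepressors: Egr1, Egr2 and Egr3, which encode zinc-finger transcription factors, and Nab1 and Nab2, which encode the proteins that bind EGR factors and repress their activity. The loci were given as 5 genomic windows of the mm9 mouse genome, and every listed Egr2 region that overlapped a window was taken, without regard to its height. This gave 10 regions of 6212 in 2 peak lists, 8 of 4216 in 1 list and 2 of 1996 in the other. The measurements were made by chromatin immunoprecipitation with an antibody to EGR2 (Krox-20) followed by sequencing, with 1 library per condition, in mice that the labels give as strain Va14tg. Such mice carry a transgene for the invariant T cell receptor α chain of natural killer T (NKT) cells, lipid-reactive T cells that develop in the thymus. The sources used here name neither the promoter of the transgene nor the age of the mice. The NKT library was made from cells enriched with CD1d tetramers and pooled from about 10 mice. The injected-thymocyte library was made from thymocytes of 3 to 5 mice, taken 24 hours after 500 µg of the anti-TCRβ antibody H57, a strong receptor stimulus. Each immunoprecipitation started from 20000000 cells. No expression was measured, so neither cell population could be checked against marker genes.

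EGR genes are immediate early genes: T cells switch them on within a short time of T cell receptor engagement, and the factors bind GC-rich sites of the form GCGTGGGCG. NAB proteins have no DNA-binding domain of their own and are recruited by EGR1, EGR2 and EGR3. Nab2 is itself a known EGR target, so the pair forms a negative feedback loop. In the thymus, EGR2 is needed for NKT cell development.

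The RefSeq promoter table (GRCm38.p6) held 3 of the 5 genes, Nab1, Nab2 and Egr2; Egr1 and Egr3 had no entry that was used. The 250 bases before a transcription start were searched on both strands for GCGTGGGCG and its variant GCGGGGGCG, whose reverse complements are CGCCCACGC and CGCCCCCGC. The sequences below are shown because the NAB genes differ both in their listed Egr2 regions and in these letters. They run 5′ to 3′ in the direction of the gene, end at the base before the start, and carry the closest matches in capitals. Nab2 is read from the minus strand of chr10:127666704-127666953, Nab1 from the minus strand of chr1:52500449-52500698 and the first of 5 Egr2 starts from the plus strand of chr10:67535249-67535498, all in GRCm38.p6. These positions belong to another build than the peak lists and cannot be set beside them.

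Nab2: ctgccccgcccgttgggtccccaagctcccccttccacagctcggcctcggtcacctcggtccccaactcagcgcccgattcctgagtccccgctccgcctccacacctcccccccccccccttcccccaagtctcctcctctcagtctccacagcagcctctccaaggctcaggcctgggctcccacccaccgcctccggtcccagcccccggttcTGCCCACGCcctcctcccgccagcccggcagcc

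Nab1: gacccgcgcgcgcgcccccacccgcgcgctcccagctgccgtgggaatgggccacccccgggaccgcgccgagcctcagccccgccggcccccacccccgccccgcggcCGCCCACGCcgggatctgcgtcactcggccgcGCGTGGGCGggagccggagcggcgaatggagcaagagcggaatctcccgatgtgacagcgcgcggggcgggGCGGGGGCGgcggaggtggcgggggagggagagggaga

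Egr2: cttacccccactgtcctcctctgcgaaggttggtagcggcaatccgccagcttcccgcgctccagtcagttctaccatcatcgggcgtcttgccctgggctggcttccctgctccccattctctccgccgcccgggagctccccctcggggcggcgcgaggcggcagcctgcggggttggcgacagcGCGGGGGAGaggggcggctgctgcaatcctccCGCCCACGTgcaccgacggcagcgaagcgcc

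The Nab1 promoter held 3 exact matches, which begin 141, 109 and 38 bases before the start. The first is a GCGTGGGCG on the reverse strand, the second a GCGTGGGCG on the forward strand and the third a GCGGGGGCG on the forward strand. The Nab2 promoter held no exact match and 1 with a single mismatch, TGCCCACGC, 33 bases before the start. At the Egr2 start shown, 2 matches had a single mismatch, GCGGGGGAG and CGCCCACGT, and the other 4 Egr2 starts had neither kind. Of 32851 promoter windows in the table, 3.06% held an exact match and 24.2% one with at most 1 mismatch. These are matches of letters. Whether a listed region covers any of them was not tested, since no mm9 sequence or annotation was used here.

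In the peak lists, a region is a stretch of raised ChIP signal and carries 1 listed peak, whose summit is its highest point. The ChIP tag density is the authors' height at the summit, on a scale that the sources used here do not name. Among injected-thymocyte peaks it ranged from 10.0 to 97.0 with a median of 11.2, and among NKT peaks from 9.96 to 93.5 with a median of 11.1. Regions are called here by the authors' numbers, which run from the highest density down. The numbers reach 4975 in injected thymocytes and 2885 in NKT cells, so 15.3% and 30.8% of them are not in the lists as analysed here. Ranks below are among the listed peaks, and a locus without a listed region may have one among them. Positions are mm9 as deposited. A region held a median of 16 ChIP tags in injected thymocytes and 15 in NKT cells. Intervals printed below are 95% exact intervals of a ratio of 2 tag counts and cover counting error only, since tags amplified by PCR are not independent molecules.

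Nab2 was the locus with the most Egr2 regions, and in NKT cells it was the only 1 of the 5 loci with a listed region. In the window chr10:127080000-127120000, injected thymocytes had 4 regions and NKT cells had 2. When the chromosomes were tiled with 65766 windows of the same 40 kb, 0.0122% of the windows held 4 or more regions of injected thymocytes, which is 8 windows, and 0.0882% held 2 or more of NKT cells. The windows were placed on the genes, while the tiles fall anywhere. These shares, and those given for the other loci below, therefore describe how rare such counts are and are no test.

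**Figure D1:**
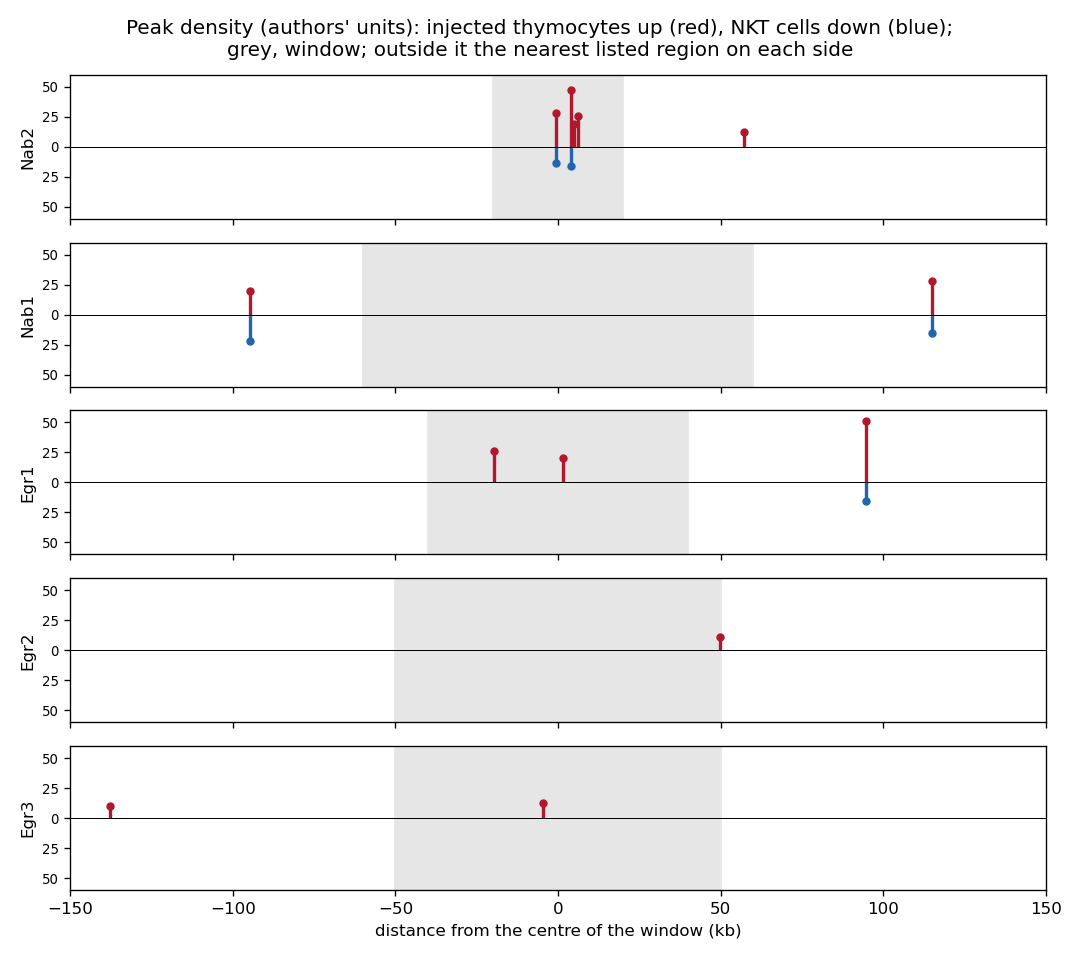
Listed peaks around the 5 windows, as distance from the centre of the window in kb against ChIP tag density in the authors' units, with injected thymocytes drawn upwards in red and NKT cells downwards in blue. Grey marks the window, and outside it the nearest listed region on each side is drawn where it lies within 150 kb of the centre; Nab2 holds 4 red and 2 blue peaks, and the Nab1 window is empty.

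The tallest Nab2 region was number 47 of injected thymocytes, chr10:127103673-127104216, with a density of 47.1 at its summit, 127104026. It ranked 32 of 4216. The region had 114 ChIP tags and 2 control tags. Scaled by the factor of its list (0.742), this is a 42.3-fold excess of ChIP tags (interval 11.4 to 353). The authors' own tag enrichment is 17.2. The NKT list had region 383 at the same place, chr10:127103662-127104179, with a density of 16.3 and rank 155 of 1996, or 8.02% from the top. By its number among 2885, which counts regions not analysed here, it stands at 13.3%. With 53 ChIP tags and 1 control tag the scaled excess, here by 1.14, was 60.2-fold (10.3 to 2422), and the deposited enrichment is 8.86. The regions overlapped by 507 bp and their summits lay 27 bp apart.

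Both were wide. Region 47 spanned 544 bp and region 383 spanned 518 bp, against list medians of 155 and 142 bp, which placed them at 58 and 18 by width. In both lists the peak listed for this region carries index 2, that is, it is the second peak the authors numbered there. Such an index above 1 occurred in 55 injected-thymocyte and 13 NKT peaks, and in 2 of the 355 overlapping pairs on both sides. A first peak of these regions was not analysed here.

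A second Nab2 position was found in both lists, 4698 bp below the first in injected thymocytes and 4760 bp below it in NKT cells. Region 203 of injected thymocytes, chr10:127099197-127099481, had a density of 28.0 and rank 176, with 54 ChIP tags and 1 control tag (scaled ratio 40.05, 6.89 to 1611). Region 674 of NKT cells, chr10:127099189-127099400, had a density of 13.5 and rank 318 (16.4% from the top, 23.4% by its number), with 22 ChIP tags and 1 control tag (scaled ratio 24.98, 4.04 to 1031). Their summits were 35 bp apart. The upper position held more tags than this one in both libraries, 2.11 times as many (1.51 to 2.98) in injected thymocytes and 2.41 times (1.44 to 4.16) in NKT cells. These are totals, not divided by width. The upper position was also wider, 544 against 285 bp in injected thymocytes and 518 against 212 bp in NKT cells. By density it was 1.69 and 1.21 times as high, so the 2 measures order the libraries differently. This balance was not tested between the cell populations.

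The other two Nab2 regions were listed in injected thymocytes only, just above the tallest one. Region 488, chr10:127104850-127105475, had its summit 931 bp above that of region 47. It had a density of 18.9 and, at 626 bp, was number 32 of the list by width. Region 263, chr10:127105738-127106124, followed after another 1048 bp with a density of 25.6. They held 71 and 60 ChIP tags, and no control tag was counted in either. Against a floor of 3 control tags per region the ChIP tags were at least 17.6-fold and at least 14.8-fold higher after scaling. These bounds take the ChIP tags as exact. The lower limits of the exact intervals, with 0 control tags, are 13.9 and 11.7, and the deposited tag enrichments are 9.33 and 12.7.

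The strand signal at the peak of region 263 was unlike that of the other members. Tags on the 2 DNA strands are offset around a bound site, and the lists give this offset as a strand shift with a strand correlation. The correlation of its peak was 0.262, as low as in 2.51% of all listed peaks, against a list median of 0.884. The shift of the region as a whole is given as -200, a value that 38 of 4216 regions carry, while its peak has a shift of 52 bp. Over the whole region its correlation was 0.530, above those of Nab2 region 488 (0.367) and Egr1 region 405 (0.316). The other 7 members of injected thymocytes had peak correlations of 0.633 to 0.966 and shifts of 68 to 112 bp, around the list median of 86 bp. The Nab2 peaks of NKT cells had shifts of 63 and 77 bp, above the median of 45 bp of their list, and correlations of 0.738 and 0.831.

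**Figure D2:**
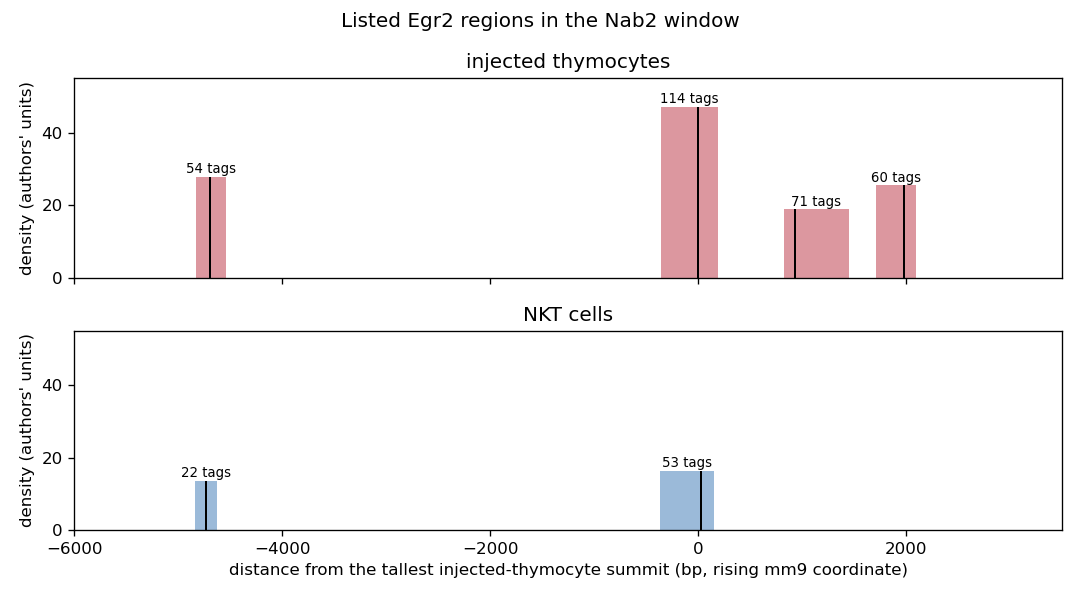
Regions in the Nab2 window, as distance in bp from the tallest injected-thymocyte summit against ChIP tag density in the authors' units; bars span the regions, black lines mark the summits and labels give the ChIP tags. The upper panel shows 4 regions of injected thymocytes and the lower panel 2 of NKT cells, which lie under the first and second of them.

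The 4 summits of injected thymocytes lay within 6677 bp. Groups of at least 4 summits within 10 kb, with overlapping groups joined, occurred at 5 places in that list. The Nab2 group held 299 ChIP tags and 3 control tags, a scaled ratio of 73.9 (25.05 to 360). The other 4 groups held 26 to 1167 control tags, at scaled ratios of 1.28 to 2.97. The tallest peak of the Nab2 group had a density of 47.1, and those of the other groups 16.5 to 22.1. In NKT cells the Nab2 regions together held 75 ChIP tags against 2 control tags, a scaled ratio of 42.6 (11.4 to 358). That list had 31 other groups of at least 2 summits within 10 kb. The median scaled ratio of those with a control tag was 5.04, 1 had a higher ratio than Nab2, 47.7, and 1 had no control tag.

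The tallest and the second tallest position of injected thymocytes were the shared ones, yet region 263, at 25.6, was close to the second at 28.0 and had no NKT counterpart. The NKT density was 0.346 times that of injected thymocytes at region 47 and 0.483 times at region 203. Over the 355 overlapping pairs this ratio had a median of 0.677 and quartiles of 0.499 and 0.916, and from the highest down the Nab2 pairs stood at 323 and 271. The lowest listed densities are 10.0 in injected thymocytes and 9.96 in NKT cells. A low ratio can therefore occur only at a tall injected peak, and the place depends on that height. The pairs next to region 47 in injected density, at 47.4 and 46.5, had NKT densities of 12.3 and 37.7. The scales of the lists may differ, and the order of the ratios is unaffected by a constant factor between them. At the ratio of region 47, regions 263 and 488 would have NKT densities of 8.84 and 6.54, below the lowest listed. The Egr1, Egr3 and Egr2 members would have 3.89 to 9.15. Region 203 would have 9.66 by that ratio, yet its NKT counterpart was listed at 13.5. All these values rest on the ratio of region 47, 0.346, which is low among the pairs. At the ratio of region 203, 0.483, or at the median, 0.677, they would be higher. Whether a member falls below the lowest listed density thus depends on the ratio chosen. Whether the members without an NKT region differ in binding was not tested.

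**Figure D3:**
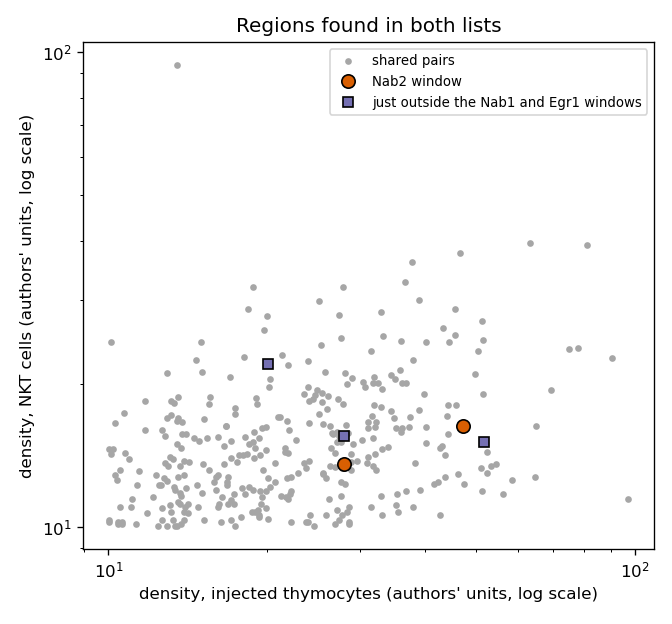
Density in NKT cells against density in injected thymocytes for the overlapping regions of the lists, in the authors' units on log axes, 1 point per pair. Orange circles are the Nab2 pairs, at 47.1 on the injected and 16.3 on the NKT axis and at 28.0 and 13.5, and squares are pairs just outside the Nab1 and Egr1 windows.

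Nab1, the other corepressor gene, had no listed region in either library in its window, chr1:52480000-52600000. Of 21929 windows of 120 kb, 16.7% held a region of injected thymocytes and 8.44% one of NKT cells, so an empty window is the common case. The nearest listed regions lay outside it on both sides and were present in both lists. Before the window, 34.7 kb from its edge, injected thymocytes had region 421, chr1:52445066-52445302, at a density of 20.1, and NKT cells had region 167, chr1:52445011-52445323, at 22.0 and rank 52. The NKT region held 46 ChIP tags and no control tag, and the injected one 33 against 1. After the window, 54.7 kb from its edge, the densities were 28.04 and 15.5. These regions are not members and were assigned to no gene.

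The Egr1 window, chr18:34980000-35060000, held 2 regions of injected thymocytes and none of NKT cells. Of 32886 windows of 80 kb, 1.03% held 2 or more regions of injected thymocytes and 5.74% held 1 or more of NKT cells. Egr1 encodes the EGR factor that many cell types induce first. Region 241, chr18:35000097-35000424, had a density of 26.5 and rank 208, with 47 ChIP tags and 1 control tag (scaled ratio 34.9, 5.96 to 1406). Region 405, chr18:35021198-35021529, had a density of 20.4 and rank 352, with 34 ChIP tags and 1 control tag (scaled ratio 25.2, 4.23 to 1025). Both were thus taller by density than region 488 at Nab2, though each held fewer ChIP tags than the 71 of that region. The nearest NKT summit was 114 kb from the first and 93.1 kb from the second. It belonged to chr18:35114366-35114663, which lies 54.4 kb beyond the window and overlaps region 31 of injected thymocytes, where the densities were 15.1 in NKT cells and 51.6 in injected thymocytes.

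Egr3 and Egr2 each had 1 region, both in injected thymocytes, at densities below those of the Nab2 and Egr1 members and above the list median of 11.2. EGR3 is the family member that overlaps most with EGR2 in T cell function. In its window, chr14:70430000-70530000, region 1313 at chr14:70475163-70475358 had a density of 12.8 and rank 1094, with 26 ChIP tags and 1 control tag (scaled ratio 19.3, 3.17 to 791). The Egr2 gene encodes the factor that was precipitated. In its window, chr10:66950000-67050000, region 2399 at chr10:67049663-67049781 had a density of 11.3 and rank 1975, with 16 ChIP tags and 1 control tag (scaled ratio 11.9, 1.84 to 498). Its fold over the control density was 7.01, which 79.7% of the listed peaks reached. Its summit lay 281 bp inside the end of the window, so that it is a member by a narrow margin. Of 26312 windows of 100 kb, 14.1% held at least 1 region of injected thymocytes and 7.14% at least 1 of NKT cells. Both windows thus held a region that most windows of injected thymocytes lack, that of Egr2 only near its edge. Their lack of an NKT region is the common case.

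**Figure D4:**
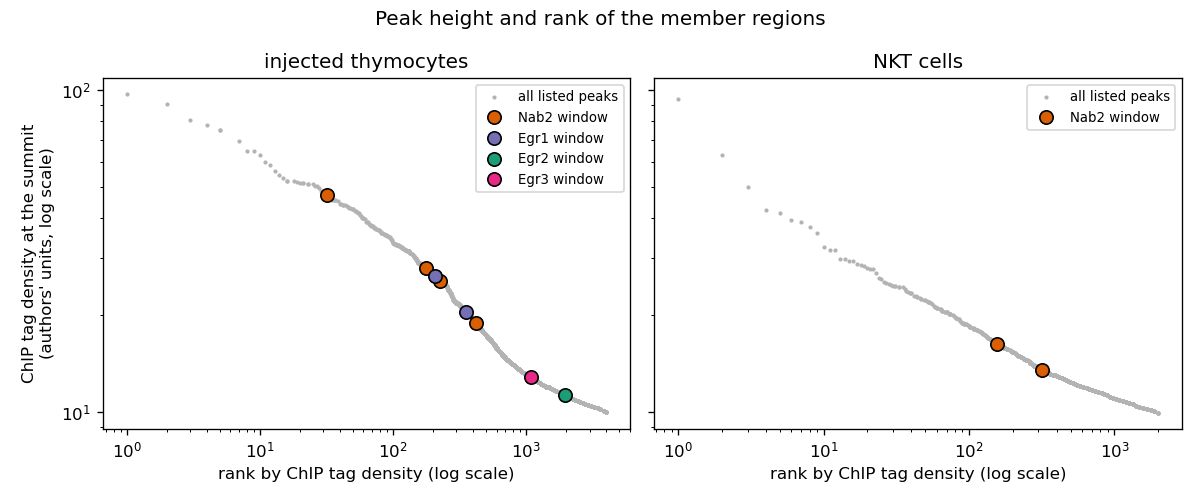
ChIP tag density in the authors' units against rank within each list, on log axes, with all listed peaks in grey and the members in colour. Nab2 and Egr1 peaks of injected thymocytes lie between ranks 32 and 421, those of Egr3 and Egr2 at 1094 and 1975, and the Nab2 peaks of NKT cells at 155 and 318.

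Set in order of height in injected thymocytes, the members ran from Nab2 region 47 at 47.1 over Nab2 region 203 at 28.0, Egr1 region 241 at 26.5, Nab2 region 263 at 25.6, Egr1 region 405 at 20.4 and Nab2 region 488 at 18.9 to Egr3 at 12.8 and Egr2 at 11.3. The 6 Nab2 and Egr1 regions were all in the highest density quartile of the list, as were both Nab2 regions in that of the NKT list. Of the 8 members, 2 overlapped an NKT region, both at Nab2. The share over the whole list was 8.42%, and within the highest density quartile 29.8%, against 2 of the 6 members there. These 6 rank between 32 and 421, near the top of that quartile, and the share is larger among taller peaks. No share was computed for peaks of their height alone, so 29.8% is not a matched background. Both NKT members overlapped an injected-thymocyte region, against 17.7% of the NKT list. That share is over NKT peaks of all heights, while these members rank 155 and 318, and no share was computed for tall NKT peaks. With 8 and 2 members these counts are descriptions. Control tags numbered 0 to 2 in each of the 10 members.

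**Figure D5:**
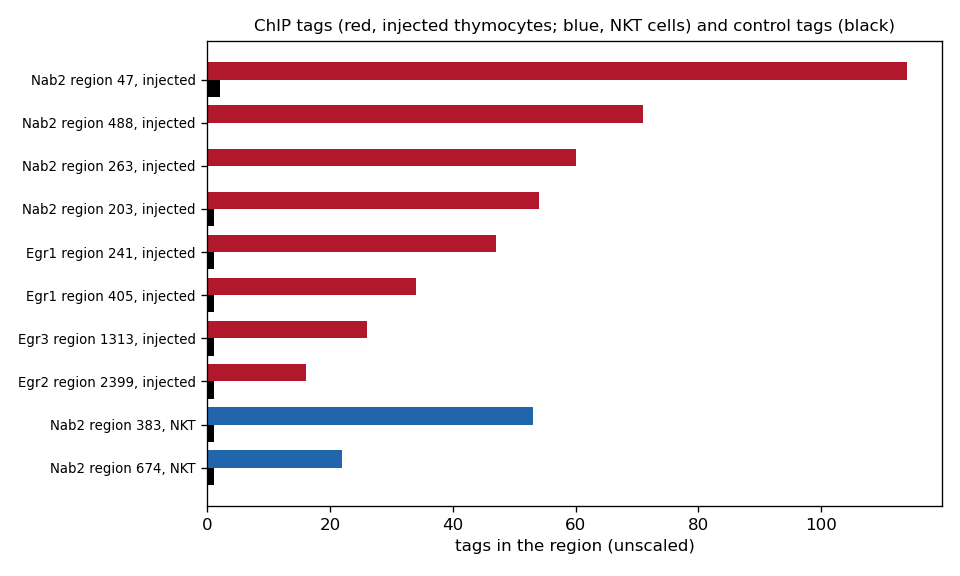
ChIP tags and control tags in each of the 10 member regions, unscaled, with the ChIP bars in red for injected thymocytes and blue for NKT cells and the control bars in black. Nab2 region 47 has the most ChIP tags, 114, Egr2 region 2399 the fewest, 16, and no member has more than 2 control tags.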

How the data were processed

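Libraries were made from 100 ng of ChIP DNA with 16 cycles of PCR, and fragments of 150 to 400 bp were sequenced on an Illumina GAII, per the labels' protocols. The submitters' processing notes name Bowtie and mm9. The peak caller, its settings and the control library behind each list were not given in the sources. The deposited signal values are ChIP and control tag densities. In the members and the nearest regions outside the windows, the deposited fold equals the ChIP density where the control density is below 1. Where the control density is higher, the fold is the ratio of the densities. The deposited whole numbers are ChIP and control tags per region, with a tag enrichment, strand values and ranks as further scores. Total depth is unknown. Tag ratios were multiplied by the factor that the deposited enrichment follows where a region has more than 50 control tags (0.742 in injected thymocytes, 7 regions; 1.14 in NKT cells, 17 regions). Overlap means at least 1 bp. With 1 library per condition no test between conditions was made. The windows and members were chosen with earlier results of these data known. All members are named. Window size, overlap criterion, tag scaling and ranking were varied. The planned list of other EGR targets was left out, since peaks were not assigned to genes without an mm9 annotation. The input and IgG libraries were not analysed here. Intervals and overlaps were tested on simulated data (Python 3.11.15, scipy 1.17.1).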

Additional observations from a re-analysis of the deposited data

How the results depend on the processing

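Of 118 values recomputed with another setting, 99 left a value within its interval or a count within 1.5 times, and 19 moved. For ranks the interval was that of the percent of listed peaks, which reflects no counting error of tags. Some values could not move: a count of 0 stays 0 under a stricter filter, and no member has a control density of 3. Tag-ratio intervals are wide, so Nab2 region 203, at 40.05 and by deposited enrichment 14.8, counted as unmoved. The tally is thus no measure of robustness. With windows widened by 50 kb the Nab1 count became 1 in each list, and in the middle of the windows the Egr2 count in injected thymocytes became 0, since that region lies at the edge. The 2 overlapping members of injected thymocytes became 3 when regions were extended by 500 bp, which brings Nab2 region 488 to an NKT region, and stayed at 2 under the other 3 criteria. The count in NKT cells was 2 under each of the 4. The deposited tag enrichment was below the interval for Nab2 region 488 (9.33) and for Nab2 region 383 of NKT cells (8.86). Ranks moved more: as the percent of listed peaks at least as high, ranking by ChIP tags gave 5.43% for Nab2 region 203, 2.92% for 488, 4.39% for 263, 7.02% and 12.3% for Egr1 regions 241 and 405, 59.6% for Egr2, 18.9% for Egr3, and 19.1% and 1.85% for the NKT regions 674 and 383. Ranking by fold over control gave 9.04% for region 488, 79.7% for Egr2, 20.9% for Egr3, 11.3% for 674 and 5.61% for 383. For every member but the Egr2 region this fold is the density itself, so their places changed only through other listed peaks. By density these were 4.17%, 10.1%, 5.41%, 4.96%, 8.37%, 48.9%, 26.5%, 16.4% and 8.02% in the order of the first list. At the Egr2 region the control density was 1.61, so its fold is lower than its density. The cause of the moves by ChIP tags was not tested. With 0 to 2 control tags per member, the ratios are imprecise. The span of 10 kb for groups of summits was chosen after seeing the data; 20 kb gave 6 groups in place of 5. No paired analysis was possible because each condition has 1 library.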

Other observations

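In the RefSeq gene table Nab2 lies between Stat6, which encodes a cytokine signal transducer, and Nemp1. The next neighbours are Reep2 and Etf1 for Egr1, Nrbf2 and Ado for Egr2, and Pebp4 and Bin3 for Egr3. The table is of GRCm38 and was used for gene order alone. No region was assigned to a gene within the windows.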
